A study of Mus musculus with 8 samples.

Results

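Dendritic cell lineage regulators are the transcription factors and surface receptors by which dendritic cells are formed and told apart from macrophages. The 10 genes Flt3, Zbtb46, Batf3, Irf4, Irf8, Siglech, Xcr1, Tcf4, Bcl11a and Id2 were taken by symbol from the 55357 genes in the count table. They were examined in bone marrow-derived macrophages (BMDM) of wild-type C57BL/6J mice, grown for 5 to 6 days with M-CSF, the macrophage growth factor, at 10 ng/ml, from which polyA RNA was sequenced. The So(d18:1) group comprised 4 libraries of BMDM given 2 μM sphingosine d18:1, a lipid carried in methanol, for 6 h, and the control group 4 libraries given methanol alone for the same time. The age of the mice is not given in the labels, and the paper calls the samples biologically independent without saying whether they came from separate animals, so p-values measure the spread between these samples. The paper's text places the cells under inflammatory stimulation, whereas the labels name no such stimulus.

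Dendritic cells are usually divided into classical dendritic cells, of a cross-presenting kind (cDC1) and a kind that presents chiefly to helper T cells (cDC2), and plasmacytoid dendritic cells (pDC), which release type I interferon. FLT3 is the receptor whose ligand drives their formation in marrow. IRF8 and BATF3 set up the cDC1 program and IRF4 that of cDC2, while the E protein TCF4 sets up the pDC program and is held in check by ID2, which binds E proteins and keeps them off DNA. ZBTB46 marks the classical lineage, XCR1 is the chemokine receptor of cDC1, Siglec-H is a surface lectin of pDC, and BCL11A is a zinc finger factor needed for pDC and lymphoid cells. Macrophages also use part of this machinery, IRF8 above all.

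Total counts lay between 17748397 and 26088609 per library. Levels are given as CPM, counts scaled to each library's total over the genes that passed a filter on low counts. That total was adjusted by the library's TMM scaling factor (0.989 to 1.01). Macrophage markers were abundant, with Csf1r, the M-CSF receptor, at a CPM of 6234 ± 98.2 in control BMDM and 5986 ± 298 with So(d18:1) (mean ± SD, n = 4 each, as throughout). The control libraries fell into pairs: counts of replicates 1 and 2 differed by a chi-square of 2.77 per gene and those of replicates 3 and 4 by 3.79, whereas pairs across these differed by 5.76 to 12.2. The So(d18:1) libraries were uneven as well, with replicates 1 and 3 differing by 2.83 and the other pairs by 5.55 to 7.65. No batch is given in the labels, so results that rest on the division of the controls are also given with each pair of controls alone. This step was chosen after the data were seen, so its p-values describe the division and are no further test.

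Per kilobase of exon, the regulators spanned a wide range. This level was computed as RPKM, the CPM divided by the exon length in the count table, which covers the exons of all isoforms and understates genes with many isoforms such as Tcf4. Id2 and Irf8 were at the top, with control libraries at 42.7 to 57.4 RPKM for Id2 and 39.6 to 44.1 RPKM for Irf8. These ranges overlapped, so their order was not resolved in control BMDM, and with So(d18:1) the mean of Irf8 (42.9 RPKM) stood above that of Id2 (39.1 RPKM). Their mean control RPKM exceeded that of 94.1% (Id2) and 92.9% (Irf8) of the 14514 genes tested. Tcf4 followed at 8.43 to 9.9 RPKM in control libraries, apart from its neighbours on either side. Irf4 (1.65 to 2.13 RPKM) and Batf3 (1.35 to 1.9 RPKM) overlapped each other there. Siglech lay at 0.598 to 0.788 RPKM in control libraries, above Flt3 at 0.254 to 0.405 RPKM. Flt3 overlapped Bcl11a (0.179 to 0.285 RPKM), which in turn overlapped Xcr1 (0.104 to 0.197 RPKM). Zbtb46, the factor that marks classical dendritic cells, was lowest at 0.0198 to 0.0515 RPKM, below Xcr1 in each library. With So(d18:1) the order of the means was the same from Tcf4 down.

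**Figure D1:**
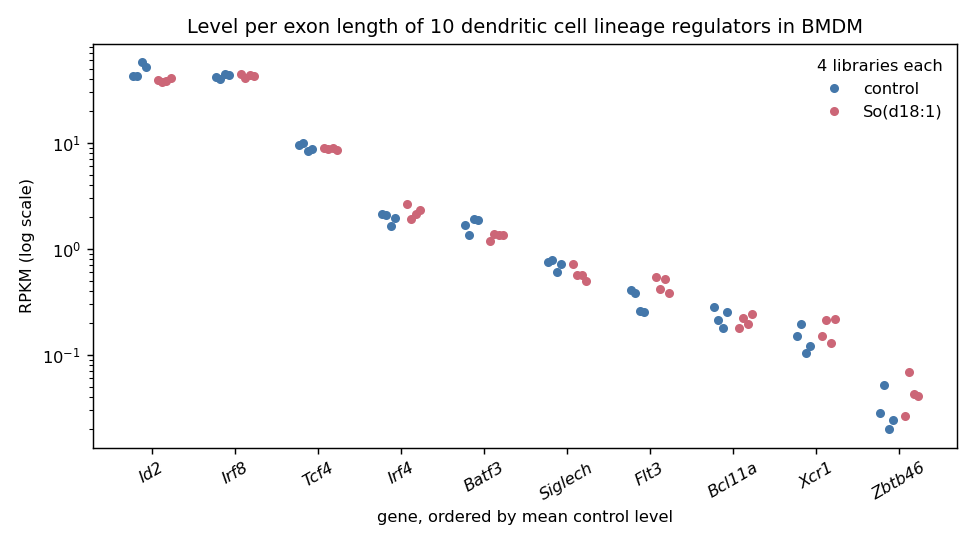
Level of each regulator in RPKM on a log scale, with 1 point per library (blue, control; red, So(d18:1)) and genes ordered by their mean control level. Id2, Irf8 and Tcf4 lie above 8 RPKM in each library, and the subset markers Siglech, Xcr1 and Zbtb46 lie below 0.8 RPKM.

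The 6 cDC1 markers summed to 55.8 to 59.6 CPM in control and 68.7 to 76.0 CPM in So(d18:1) libraries. Most of this was Cadm1, an adhesion molecule that other cells also express, with means of 51.6 CPM in control and 67.4 CPM with So(d18:1). The means of Clec9a (1.23 to 0.964 CPM), Batf3 (2.71 to 2.11 CPM) and Gcsam (0.773 to 0.296 CPM) were lower with So(d18:1). Those of Itgae (1.14 to 1.22 CPM) and Xcr1 (0.637 to 0.791 CPM) were higher, and Xcr1 stayed under 1 CPM in each library. The 6 pDC markers summed to 4.91 to 5.53 CPM in control and 4.27 to 5.31 CPM in So(d18:1) libraries, and 3 of the 6 were under 1 CPM in every library. The 5 cDC2 markers, mostly Clec10a, summed to 102 to 120.0 CPM in control and 54.4 to 66.1 CPM in So(d18:1) libraries. None of these markers had 0 counts in all libraries. In RNA from whole cultures, fewer cells of a type and less RNA per cell cannot be told apart.

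RefSeq promoters (build GRCm38.p6) matched 9 of the 10 regulators. The 250 bases before the RefSeq start are printed for 4 of them, Id2 and Flt3 because they had the smallest p-values of the list, Irf8 because it was the most highly counted, and Batf3 because it had the largest fitted decrease. Capitals mark matches on either strand to the E-box CANNTG, the motif of E proteins such as TCF4, and to ACGTG, the core of the element that HIF proteins bind. CACGTG matches both motifs. The windows of Id2 and Batf3 lie inside the gene as annotated here, which starts further upstream, and those of Flt3 and Irf8 end where it starts.
Id2, chr12:25096093-25096342, minus strand: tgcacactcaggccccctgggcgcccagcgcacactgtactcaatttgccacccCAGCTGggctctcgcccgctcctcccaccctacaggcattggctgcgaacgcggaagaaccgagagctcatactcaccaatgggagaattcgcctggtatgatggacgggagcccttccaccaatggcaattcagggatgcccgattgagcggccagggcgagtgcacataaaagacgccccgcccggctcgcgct
Flt3, chr5:147400490-147400739, minus strand: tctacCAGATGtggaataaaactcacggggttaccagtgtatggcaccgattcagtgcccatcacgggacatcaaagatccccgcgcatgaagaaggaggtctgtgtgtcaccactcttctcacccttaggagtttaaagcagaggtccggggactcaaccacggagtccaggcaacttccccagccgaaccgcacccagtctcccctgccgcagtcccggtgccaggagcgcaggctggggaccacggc
Irf8, chr8:120736108-120736357, plus strand: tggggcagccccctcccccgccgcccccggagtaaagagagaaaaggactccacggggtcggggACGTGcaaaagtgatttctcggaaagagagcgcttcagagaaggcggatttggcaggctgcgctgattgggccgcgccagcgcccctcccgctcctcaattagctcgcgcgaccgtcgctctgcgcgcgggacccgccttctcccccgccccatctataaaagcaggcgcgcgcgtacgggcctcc
Batf3, chr1:191098164-191098413, plus strand: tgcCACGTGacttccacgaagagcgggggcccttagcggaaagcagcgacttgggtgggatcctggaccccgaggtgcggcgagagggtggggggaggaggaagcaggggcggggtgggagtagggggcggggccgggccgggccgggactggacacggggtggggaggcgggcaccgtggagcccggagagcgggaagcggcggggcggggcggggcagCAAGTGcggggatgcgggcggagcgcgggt
An E-box was found in the window of Id2 (1 match), Flt3 (1) and Batf3 (2) and not in that of Irf8, where 66.2% of 32851 RefSeq promoters of the same length hold one. A further RefSeq start of Irf8 had 2 E-boxes. ACGTG was found before Batf3, Irf8, Siglech, Xcr1 and Bcl11a and in 16.6% of all promoters. TGANTCA, the site of AP-1 proteins, was found once, before Zbtb46, and in 6.75% of all promoters. A match describes these letters only.

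No regulator of the list was called different between So(d18:1) and control BMDM. Of the 10 genes, 9 passed the filter on low counts and were tested. At an adjusted p under 0.05 (edgeR's quasi-likelihood test, Benjamini-Hochberg adjustment, as for each adjusted p below that names no other tool) there were 0 of 9, where 8.94% of all tested genes were called, 3.87% higher and 5.07% lower. Without adjustment, 2 of 9 had a p under 0.05, Id2 and Flt3, where 23.4% of all tested genes did. By the paper's threshold, which asks for a 1.5-fold change beside that unadjusted p, there were 0 of 9, where 3.89% of all tested genes passed. The exact and likelihood ratio tests of edgeR, limma-voom and the Wald test of DESeq2 each called 1 of 9, which was Id2. Over all tested genes they called 1525, 1565, 1309 and 1495 of 14514. By edgeR's quasi-likelihood test, 865 of 14865 genes were called against control replicates 1 and 2 alone. Against replicates 3 and 4 alone it called 1801 of 15056. Of the 9 fitted log2 fold changes (log2FC, So(d18:1) minus control), 4 were above 0 and 5 below, with a median of -0.059 beside 0.0036 for all tested genes.

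**Figure D2:**
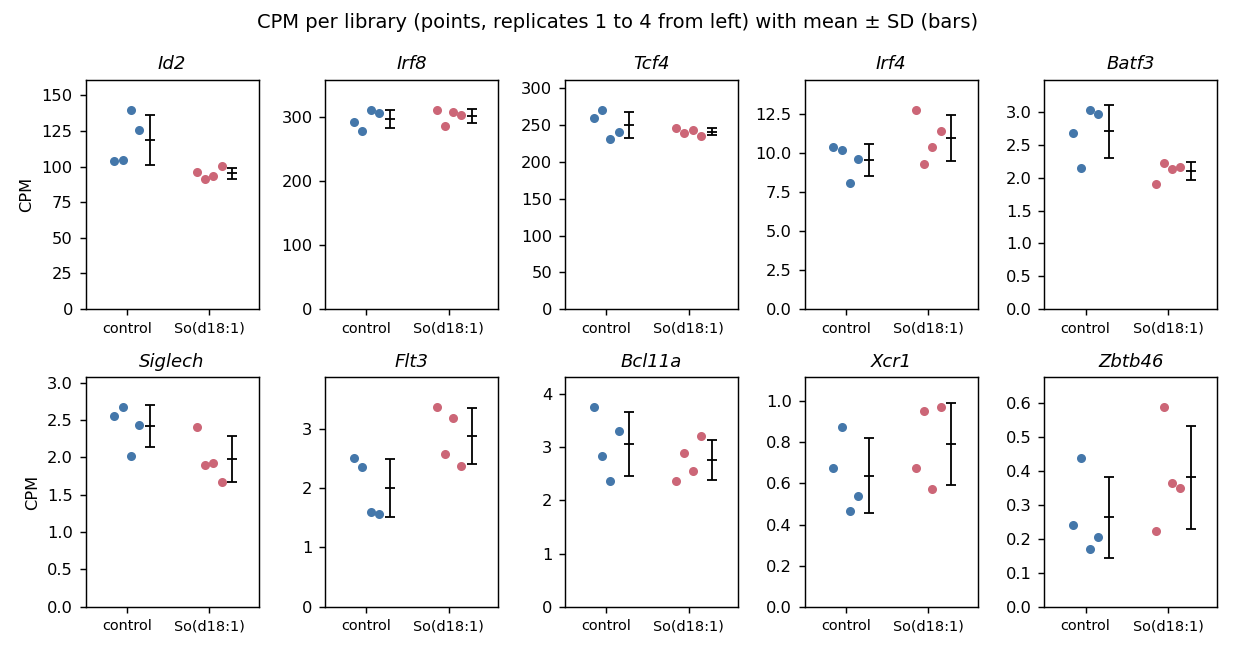
CPM of each regulator per library, with replicates 1 to 4 from left to right in each group, and the mean ± SD (n = 4) beside them. The groups separate for Id2, at 104 to 140.0 CPM in control and 91.3 to 100.2 CPM in So(d18:1) libraries, and overlap for the other 9 genes.

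Id2, the inhibitor of E proteins, was the regulator with the smallest p. It lies on chromosome 12 from 25093799 to 25097140 (GRCm38, as are the other positions). Control replicates 1 to 4 had 104, 105, 140.0 and 126 CPM, and So(d18:1) replicates 1 to 4 had 96.3, 91.3, 93.7 and 100.2 CPM. Each So(d18:1) library was below each control library, and the controls were spread widely, with replicates 3 and 4 high. Id2 was the 1 member of 9 tested whose groups did not overlap, where 15.0% of all tested genes did not and 7.87% were lower in this way. The means were 119 ± 17.5 and 95.4 ± 3.83 CPM (log2FC -0.32, SE 0.091, 95% interval -0.52 to -0.11, adjusted p = 0.0602). A two-sided exact permutation test gave p = 0.0286, the smallest that 4 against 4 libraries allow, and was run for each of the 10 genes. Against control replicates 1 and 2 alone the log2FC was -0.13 (adjusted p = 0.154), and against control replicates 3 and 4 alone -0.48 (adjusted p = 1.38e-06). Since replicates 3 and 4 are the controls highest in Id2, the larger decrease against them follows from the choice of pair. Id2 was called in 3 of the 8 fits with 1 library left out, namely without control replicate 1 (adjusted p = 0.0122), without control replicate 2 (0.0143) and without control replicate 3 (0.0276, with a log2FC of -0.23). The highest adjusted p among the 8 was 0.145, without So(d18:1) replicate 2. Of 10 other alternatives in scaling, filter, block or test, 8 called Id2. Their adjusted p ran from 1.82e-07 to 0.0592 over the 10, both by the quasi-likelihood test. The lowest was without the filter on low counts and the highest with DESeq2 size factors.

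Genes of neutrophils, short-lived granulocytes that arise in the same marrow, were among those that moved with Id2 across the libraries. The 10 neutrophil markers summed to 1834, 1795, 2439 and 2198 CPM in control replicates 1 to 4 and to 1676, 1520.2, 1553 and 1689 CPM in So(d18:1) replicates 1 to 4. Control replicates 3 and 4 were thus high for both. Of the 10 markers, 3 were called lower and 1 higher with So(d18:1), where 5.07% and 3.87% of all tested genes were. None had 0 counts in all libraries. High control replicates 3 and 4 were not particular to neutrophil markers. The sum of 8 stroma and endothelium markers was at least 27.1 CPM in these 2 libraries and at most 24.2 CPM in all others. Its groups overlapped. The monocyte and progenitor sum was instead lower in control replicates 3 and 4 (3023 and 3105 CPM) than in replicates 1 and 2 (3265 and 3335 CPM). The 3 tested genes whose log2 CPM followed that of Id2 most closely over the 8 libraries were Coro1c, which encodes an actin-binding protein, and the granule protein genes Ltf and Camp (Pearson's r = 0.991, 0.988 and 0.986). With the mean of each group removed, they were Eif3b, Ctnnb1 and the calprotectin subunit gene S100a9 (r = 0.993, 0.991 and 0.99). They were picked as the highest of all tested genes, so the coefficients describe these 8 libraries and no more. The part of neutrophil RNA in the difference of Id2 was not tested.

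**Figure D3:**
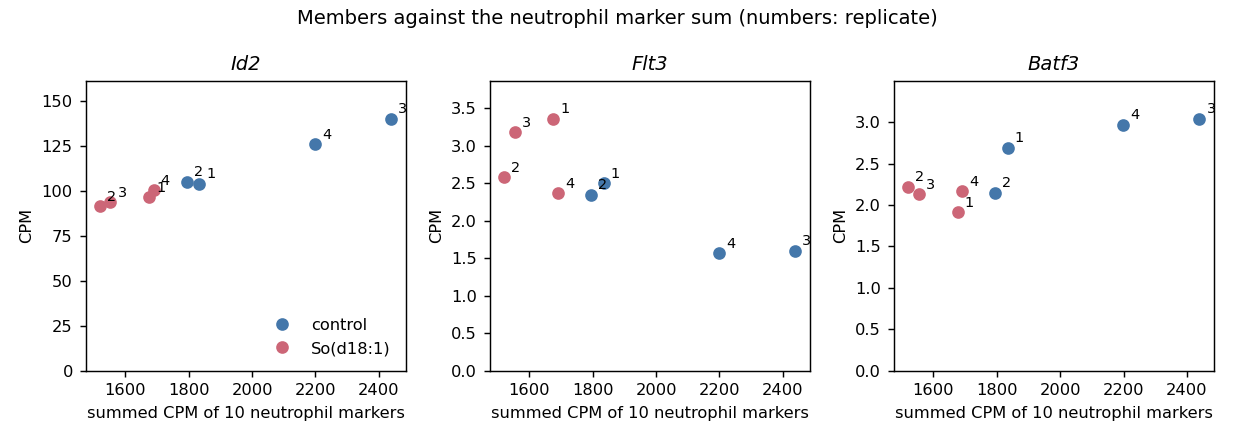
CPM of Id2, Flt3 and Batf3 (vertical axes) against the summed CPM of 10 neutrophil markers (horizontal axis), with 1 point per library, numbered by replicate (blue, control; red, So(d18:1)). Control replicates 3 and 4, at marker sums of 2439 and 2198 CPM, hold the highest Id2 and Batf3 and the lowest Flt3.

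Flt3, the receptor for FLT3 ligand, lies on chromosome 5 from 147330741 to 147400489 and was counted 38 to 61 times per library. Its levels were 2.5, 2.35, 1.6 and 1.57 CPM in control replicates 1 to 4 and 3.36, 2.58, 3.18 and 2.37 CPM in So(d18:1) replicates 1 to 4. The lowest So(d18:1) library lay within the range of control replicates 1 and 2, and control replicates 3 and 4 were below all others. The difference did not pass adjustment (log2FC 0.51, SE 0.2, 95% interval 0.089 to 0.93, adjusted p = 0.126). Against control replicates 1 and 2 alone the log2FC was 0.23 (adjusted p = 0.642), and against control replicates 3 and 4 alone 0.84 (adjusted p = 0.024). Leaving out 1 library gave 0.41 to 0.63 and no call in 8 fits. The 10 monocyte and progenitor markers, of which Flt3 is one, summed to 3023 to 3335 CPM in control and 2592 to 2762 CPM in So(d18:1) libraries. Of the 10, 6 were called lower, where 5.07% of all tested genes were. Ccr2, with means of 1276 and 1139 CPM, held a large part of the sum and was not called (adjusted p = 0.163). Kit, with means of 5.25 and 3.98 CPM, was not called either (adjusted p = 0.0963). Genes at the level of Flt3 weigh little in this sum.

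Irf8, which serves monocytes and macrophages as well as cDC1 and pDC, was the most highly counted regulator, on chromosome 8 from 120736358 to 120756694. Control replicates 1 to 4 had 293, 279, 311 and 307 CPM, and So(d18:1) replicates 1 to 4 had 312, 287, 308 and 303 CPM. The groups overlapped over most of their range. The interval of the difference ran from 0.953-fold to 1.08-fold of control (log2FC 0.024, SE 0.045, 95% interval -0.07 to 0.12, adjusted p = 0.806). Its sign changed without control replicate 2 (-0.0044) and against control replicates 3 and 4 alone (-0.029).

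Irf4, the related factor of cDC2, lies on chromosome 13 from 30749226 to 30766976. It was at 10.4, 10.2, 8.09 and 9.62 CPM in control replicates 1 to 4 and at 12.8, 9.32, 10.4 and 11.4 CPM in So(d18:1) replicates 1 to 4. The ranges overlapped, with the highest value in So(d18:1) replicate 1. The difference did not pass the test (log2FC 0.2, SE 0.11, 95% interval -0.037 to 0.43, adjusted p = 0.306). The log2FC was 0.091 against control replicates 1 and 2 alone and 0.31 against replicates 3 and 4 alone.

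Tcf4, the E protein of the pDC program, lies on chromosome 18 from 69343356 to 69689079. Its control libraries had 259, 271, 231 and 241 CPM in replicate order, and its So(d18:1) libraries 246, 239, 243 and 235 CPM. The So(d18:1) libraries lay inside the range of the controls. The interval of the difference ran from 0.895-fold to 1.03-fold of control (log2FC -0.059, SE 0.048, 95% interval -0.16 to 0.041, adjusted p = 0.505). The log2FC was -0.14 against control replicates 1 and 2 alone and 0.028 against replicates 3 and 4 alone.

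Batf3, the partner of IRF8 in cDC1, lies on chromosome 1 from 191097847 to 191108945 and had 34 to 72 counts per library. Control replicates 1 to 4 had 2.69, 2.15, 3.04 and 2.97 CPM, and So(d18:1) replicates 1 to 4 had 1.91, 2.22, 2.13 and 2.17 CPM. Control replicate 2 lay among the So(d18:1) libraries, and the other 3 controls above them. The difference did not pass adjustment (log2FC -0.36, SE 0.18, 95% interval -0.73 to 0.015, adjusted p = 0.233). The log2FC was -0.19 against control replicates 1 and 2 alone and -0.5 against replicates 3 and 4 alone.

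The remaining regulators, like Flt3 and Batf3, were counted too rarely to bound a change closely. Siglech, the pDC lectin on chromosome 7 from 55768178 to 55778925, lay at 2.02 to 2.67 CPM in control and 1.67 to 2.41 CPM in So(d18:1) libraries (log2FC -0.3, SE 0.19, 95% interval -0.7 to 0.089, adjusted p = 0.356), and its log2FC was -0.41 against control replicates 1 and 2 alone and -0.18 against replicates 3 and 4 alone. Bcl11a, on chromosome 11 from 24078056 to 24174123, lay at 2.36 to 3.75 CPM in control and 2.36 to 3.22 CPM in So(d18:1) libraries (log2FC -0.13, SE 0.18, 95% interval -0.51 to 0.24, adjusted p = 0.709). Its log2FC was -0.24 against the first and -0.027 against the second pair of controls, and -0.025 without control replicate 1. Exons of Bcl11a overlap those of 4930538E20Rik on the other strand, and 1.68% of its 50-base words are shared with it, so that reads of the pair could not be told apart if strand was not used in counting. Xcr1, the cDC1 chemokine receptor on chromosome 9 from 123852315 to 123862029, had 11 to 22 counts per control and 11 to 25 per So(d18:1) library (log2FC 0.33, SE 0.32, 95% interval -0.33 to 0.99, adjusted p = 0.58), and its log2FC was 0.042 against the first and 0.68 against the second pair of controls. Zbtb46, on chromosome 2 from 181387762 to 181459426, did not pass the filter, with 5, 11, 4 and 5 counts in control replicates 1 to 4 and 4, 13, 7 and 9 counts in So(d18:1) replicates 1 to 4. A difference of Zbtb46 was not detectable at this depth, and without the filter its log2FC was 0.54 (SE 0.53, adjusted p = 0.617).

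**Figure D4:**
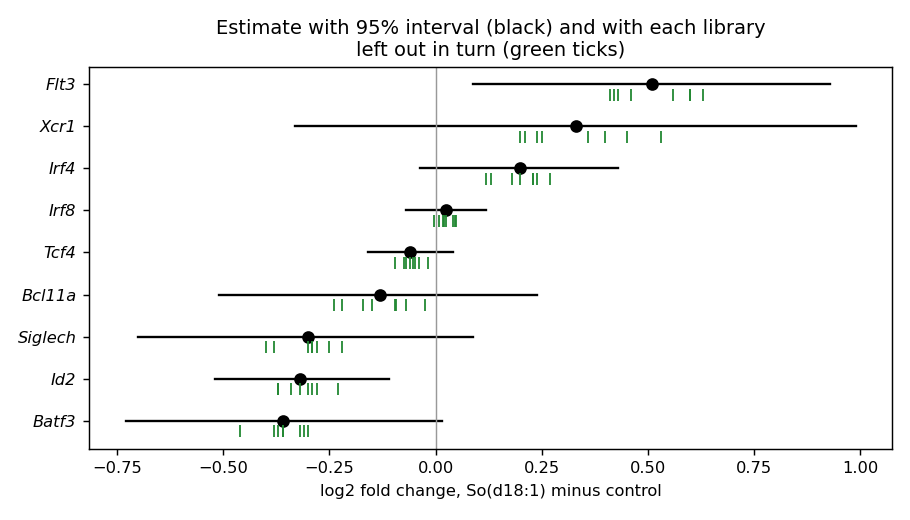
Log2 fold change of the 9 tested regulators (horizontal axis, So(d18:1) minus control), with the estimate and its 95% interval in black and the 8 estimates with 1 library left out as green ticks. The intervals of Irf8 and Tcf4 are the narrowest, and those of Id2 (-0.52 to -0.11) and Flt3 (0.089 to 0.93) leave out 0 before adjustment.

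Among the other IRF genes, 1 of 6 tested was called (16.7%, where 8.94% of all tested genes were): Irf1, an interferon-induced activator, rose from 94.7 ± 7.35 to 112 ± 6.04 CPM (log2FC 0.24, adjusted p = 0.00693), although not against control replicates 1 and 2 alone (adjusted p = 0.0982). Exons of Irf1 overlap those of Gm17334 on the other strand. Among the 10 tested BATF and AP-1 genes, Fosl2, an AP-1 subunit, was the 1 call (10.0%) and rose from 153 ± 7.89 to 178 ± 8.5 CPM (log2FC 0.22, adjusted p = 0.00463), and 3 were called against either pair of controls alone. Batf, a close relative of Batf3, had a log2FC of 0.17 (adjusted p = 0.466).

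Among the other E and ID protein genes, 0 of 4 tested was called by edgeR's quasi-likelihood test, where 8.94% of all tested genes were. At an unadjusted p under 0.05 there were 2 of 4, where 23.4% of all tested genes passed. The 2 were the E protein gene Tcf12, with a log2FC of -0.12, and Id1, which like ID2 inhibits E proteins. Id1 lay at 3.7 to 7.72 CPM in control and 2.58 to 3.65 CPM in So(d18:1) libraries (log2FC -0.86, adjusted p = 0.0567). The count was 1 by edgeR's exact and likelihood ratio tests and by DESeq2, 0 by limma-voom, and 1 without control replicate 1 or control replicate 2. Id3 had 185 ± 8.87 and 187 ± 11.2 CPM in control and So(d18:1) BMDM (log2FC 0.0099, adjusted p = 0.933).

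Of the other receptors and ligands for dendritic cell growth factors, 3 of 10 tested were called. Csf2rb, the shared signalling chain of the GM-CSF, IL-3 and IL-5 receptors, rose from 765 ± 19.1 to 1073 ± 40.3 CPM (log2FC 0.49, adjusted p = 1.41e-07). Its close copy Csf2rb2, the IL-3-specific chain, rose by a log2FC of 0.36 (adjusted p = 7.29e-06). Since 12.3% of the 50-base words of Csf2rb and 18.9% of those of Csf2rb2 are shared, chiefly with each other, their separate values are uncertain. Csf3r, the G-CSF receptor, fell from 358 ± 14.3 to 295 ± 28.0 CPM (log2FC -0.28, adjusted p = 0.00362), although not against control replicates 1 and 2 alone (adjusted p = 0.0681), and 10.7% of its words are shared with other genes. The ligand gene Flt3l had 7.28 ± 1.17 and 6.03 ± 1.18 CPM (adjusted p = 0.269), and Csf2ra, the chain specific to GM-CSF, 185 ± 9.8 and 182 ± 20.1 CPM (adjusted p = 0.889). Against control replicates 3 and 4 alone, 5 genes of this list were called.

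In a list of 30 other transcription factors of dendritic cells, 4 of 27 tested were called (14.8%, where 8.94% of all tested genes were). All 4 rose, where 3.87% of all tested genes were called higher. Runx3, which acts in dendritic cell and lymphocyte differentiation, lay at 2.69 to 3.33 CPM in control and 4.65 to 7.6 CPM in So(d18:1) libraries (log2FC 1.12, adjusted p = 6.78e-05). Its relative Runx1, a regulator of blood cell formation, rose by a log2FC of 0.48 (adjusted p = 5.61e-07), and Nfil3, which acts upstream of cDC1 formation, by 0.35 (adjusted p = 0.00147). Exons of Runx1 overlap those of Gm26626 on the other strand. Runx3, Runx1 and Nfil3 were also called with each library left out in turn and against either pair of controls alone. The median log2FC of the 27 genes was 0.0068.

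Of 11 tested cDC2 genes, 6 were called (54.5%, where 8.94% of all tested genes were). All 6 fell, where 5.07% of all tested genes were called lower, and the list median was -0.35. They included the lectin genes Mgl2 (11.1 ± 2.8 to 5.0 ± 0.774 CPM), Clec10a (86.1 ± 6.63 to 41.5 ± 3.11 CPM) and Clec12a (241 ± 15.7 to 173 ± 8.86 CPM), which macrophages also express. The decrease of Mgl2 and Clec10a was known when the list was written, so the list is not independent evidence of its direction, and 13.1% of the words of Mgl2 are shared, chiefly with Clec10a. The cDC2 count was 6 and 7 against the first and the second pair of controls alone. Of 9 tested cDC1 genes, 1 was called (11.1%): Cadm1 rose from 51.6 ± 2.14 to 67.4 ± 3.14 CPM (log2FC 0.39, adjusted p = 4.09e-05). That count was 2 without control replicate 1, control replicate 3 or So(d18:1) replicate 3, and 3 without control replicate 2. It was also 2 by edgeR's exact and likelihood ratio tests, limma-voom and DESeq2 and under upper quartile or library size scaling, 3 without the filter on low counts, and 2 and 3 against the first and the second pair of controls alone. Of 14 tested pDC genes, 2 were called (14.3%) and fell, Lair1, an inhibitory collagen receptor (log2FC -0.59, adjusted p = 7.87e-06), and Tlr9, a sensor of unmethylated DNA (log2FC -0.38, adjusted p = 0.00209). Against either pair of controls alone, 4 of the pDC genes were called.

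Of 14 tested dendritic cell maturation genes, 5 were called (35.7%, where 8.94% of all tested genes were), 4 of them lower and 1 higher. Called or not, 7 of the 14 had a log2FC above 0 and 7 below, with a median of -0.037. Cd83, a surface marker of mature dendritic cells, fell from 24.8 ± 2.67 to 14.1 ± 1.42 CPM (log2FC -0.81, adjusted p = 2.9e-06). Tmem123, a membrane mucin gene, was the 1 called higher (log2FC 0.31). The costimulatory ligand genes Cd86 (log2FC -0.3) and Cd80 (-0.28) lost their calls in 4 and 7 of the 8 fits with 1 library left out, up to an adjusted p of 0.079 for Cd86 without So(d18:1) replicate 2 and 0.106 for Cd80 without So(d18:1) replicate 1. Against control replicates 1 and 2 alone neither was called (adjusted p = 0.216 for Cd86 and 0.0733 for Cd80), and against replicates 3 and 4 alone Cd86 was (0.00104) and Cd80 was not (0.123). The count of 5 was 3 without control replicate 4 or So(d18:1) replicate 1.

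Of 11 MHC class II genes, 10 had a log2FC below 0. Ciita, the activator of the family, was the 1 call (9.09%, where 8.94% of all tested genes were called). It fell from 19.1 ± 2.36 to 12.2 ± 2.17 CPM (log2FC -0.65, adjusted p = 0.00153). The count was 5 by each of edgeR's exact and likelihood ratio tests, limma-voom and DESeq2, and 3 without control replicate 3 or against control replicates 1 and 2 alone. Exons of Ciita overlap those of Dexi on the other strand. Of 11 tested pan-cDC genes, 3 were called (27.3%). Jaml, an adhesion molecule, rose from 1.14 ± 0.105 to 3.62 ± 0.197 CPM (log2FC 1.66), and its exons overlap those of Gm10684 on the other strand. Gpr132 rose (log2FC 0.26) and Cyth4 fell (log2FC -0.15), calls that were each lost in 3 of 8 fits with 1 library left out. Both were lost against control replicates 1 and 2 alone (adjusted p = 0.173 for Gpr132 and 0.14 for Cyth4) and kept against replicates 3 and 4 alone (0.00287 and 0.0114). The count was 1 without control replicate 4 or So(d18:1) replicate 2.

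**Figure D5:**
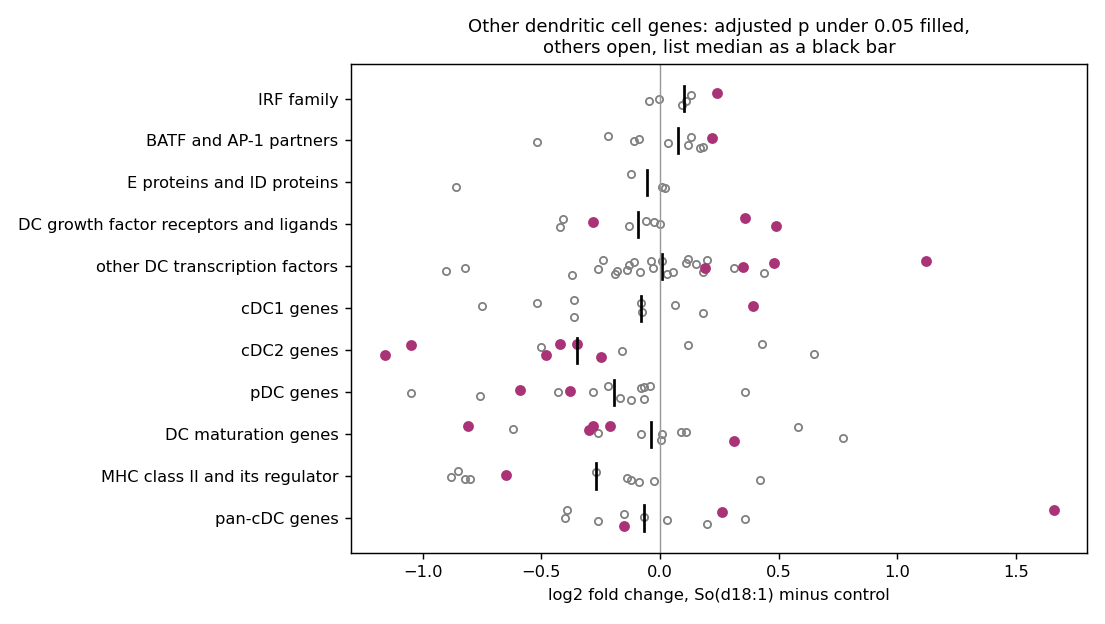
Log2 fold change (horizontal axis, So(d18:1) minus control) of the tested genes of 11 lists, with the 10 regulators left out. Filled points have an adjusted p under 0.05, open points do not, and black bars are list medians, which run from -0.35 for cDC2 genes to 0.1 for the IRF family.

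In all, the lists held 155 other genes, of which 127 were tested and 27 called (21.3%), of which 12 rose and 15 fell. Their median log2FC was -0.078. The share for all tested genes was 8.94%, and the lists were written with earlier results of these data known, so nothing particular to them can be read from the difference.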

How the data were processed

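PolyA RNA of 8 BMDM libraries was sequenced. Per the submitters' processing notes, the tools were Trim Galore 0.6.7, HISAT2 2.2.1 and featureCounts 2.0.1 and the build mm10. The authors deposited whole-number counts per gene, not normalized, beside a gene length in bases, from which RPKM was computed. Whether counting used strand or multiply mapped reads is not given in the sources used here, which leaves counts of overlapping genes and near-identical copies uncertain. Symbols came from GENCODE M21 (GRCm38) for 52081 of 55357 identifiers, and identifiers without one held 0.169 to 0.325% of counts.

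Low counts were removed by filterByExpr, libraries were scaled by TMM, and the groups were compared in R 4.3.3 with edgeR 4.0.16 (quasi-likelihood, robust), adjusting over all 14514 genes tested. Standard errors were derived from F, and 95% intervals from the t distribution of the fit. Exact permutation tests used scipy 1.17.1 on CPM. The alternatives were other scalings and filters, the replicate number as a block, limma-voom (limma 3.58.1), DESeq2 1.42.0, edgeR's exact and likelihood ratio tests, and each library left out. Tested on simulated data of 14514 genes for this comparison, the fit called 77 of 100 genes changed by 0.5 and 94 of 100 changed by 1 (log2), with 11 of 182 calls false. The changed genes were drawn from those with a mean above 1 CPM, so these rates do not cover Xcr1 or Zbtb46. The rates also average over genes of every level above that. They were not computed apart for genes as low as Flt3, Batf3, Siglech and Bcl11a, whose SEs were 0.18 to 0.2, and do not give the rate for those 4. The simulated controls held no division into pairs, so the rates take no account of it.

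Members and lists were chosen with earlier results of these data known. Genes named are the 10 members, up to 3 called rises and 3 called falls of each list, tested relatives, receptors and ligands, and the genes most like the member of smallest p. Shared sequence was measured as how many of the 50-base words in the transcripts of 1 gene also occur in another, in percent.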

Additional observations from a re-analysis of the deposited data

How the results depend on the processing

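The count of regulators called was 1, Id2, in place of 0 under upper quartile scaling, library size alone, no filter on low counts, edgeR's exact and likelihood ratio tests, limma-voom, DESeq2's Wald test and a call by groups that do not overlap, and it ran from 0 to 1 with 1 library left out. Against control replicates 3 and 4 alone, chosen after the data were seen, it was 2 (Id2 and Flt3). There the count with a 1.5-fold change was 1 in place of 0, and the calls in the lists were 43 in place of 27. Calls over all tested genes were also more, 1801 of 15056 in place of 1298 of 14514. The count with a 1.5-fold change ran from 0 to 1 with 1 library left out. The cause was not tested. With 1 library left out, the log2FC of Irf8 ran from -0.0044 (without control replicate 2) to 0.049, and against control replicates 3 and 4 alone that of Irf8 was -0.029 and that of Tcf4 0.028, each of the opposite sign to the fit on all libraries. Of 180 alternative values for single regulators, 164 kept their sign and side of the threshold. Samples that shared a replicate number deviated together little (correlations of -0.00351 to 0.1, and 1 of 4 numbers had its own number as its best partner). The numbers were not taken as a pairing, which correlations over all genes cannot exclude. With the replicate number as a block, 1 regulator (Id2, adjusted p = 0.00212) and 41 list genes were called. Calls over all tested genes were then 1784 of 14514 in place of 1298, and the cause of this rise was not tested. Depth limits Zbtb46 and Xcr1 most.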
